A study of Mus musculus with 60 samples.

Results

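The submandibular gland of the mouse is one of the 3 major salivary glands and differs between adult males and females. The data described here are the 12 submandibular libraries of a study of 60 RNA sequencing libraries from 5 tissues of 12 mice: 3 CD1 males, 3 CD1 females, 3 C57 males and 3 C57 females. The libraries were chosen by their tissue label, and the 6 males were compared with the 6 females with strain as a covariate. Genes on the X and Y chromosomes were left out of the test. CD1 mice are outbred and C57 mice inbred, the labels do not name the C57 substrain, and they give no age, treatment, batch or date. Each animal gave 1 submandibular library of poly(A)-selected RNA, so the spread within a group is that between animals. The animals carried no allele, transgene or agent named in the labels.

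As background, the gland secretes through acini, clusters of serous and mucous cells that release saliva into intercalated ducts, then striated and excretory ducts. In adult male mice androgen enlarges the granular convoluted tubules, duct segments whose cells fill with secretory granules. These tubule cells are the classic source of epidermal growth factor, renin and many tissue kallikreins, which are serine proteases of saliva. In females the tubules are smaller, and the secretory cells of the intercalated ducts persist. RNA was taken from whole glands, so for every gene below fewer cells of a type and less RNA per cell cannot be told apart.

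The libraries held between 29.9 and 51.2 M (mega) counts. Pearson's r of log2 CPM between libraries of a group, with a small count added before the log, ran from 0.931 to 0.979. CPM stands for counts per M counts of the library, scaled by edgeR's trimmed mean of M-values (TMM). Levels below are given as the lowest, median and highest of the 6 libraries of a sex, in that order. The X-linked Xist and the Y-linked Ddx3y matched the sex label in all 12 libraries: Xist was at most 5.604 CPM in males and at least 153 CPM in females, and Ddx3y was at least 19.2 CPM in males and at most 0.998 CPM in females. Prol1, a proline-rich protein of submandibular acini, was 24565 to 81958 CPM. Its mean was 3087% of the next highest tissue mean. The markers of liver (Alb), pancreas (Cpa1), parotid (Bpifa2, Amy1) and sublingual gland (Muc19) were each under 1% of the highest tissue mean. CD1 female 2 and C57 female 1 stood apart from their groups on principal components, which held 31.0%, 18.5% and 12.5% of the variance. One further measured fact bears on the females. The summed level of 13 intestinal transcripts (among them Sis, Lct, Alpi and Vil1, which encode enzymes and a structural protein of the gut lining) was 73.2 CPM in CD1 female 1, 87.9 CPM in CD1 female 2 and 80.6 CPM in C57 female 3. In the other 9 libraries it was 2.07 to 7.81 CPM, and in the library labelled pancreas CD1 female 2 it was 23772 CPM. These 13 genes are all called higher in females and are counted in the totals below, but none is described. Leaving out every gene whose level in the higher sex was under 1% of that in another tissue's highest library gave 2682 calls, 1465 higher in males and 1217 in females, in place of the 2749 below. The call counts of the sex difference over both strains, for all genes and for each gene list, were also computed without these 3 libraries. The comparisons between strains and between glands were not.

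Of 17150 genes outside the X and Y chromosomes that passed the filter on low counts, 2749 (16.0%) differed between the sexes at a Benjamini-Hochberg adjusted p under 0.05 in edgeR's quasi-likelihood test. Males were higher in 1485 of them (8.66%) and females in 1264 (7.37%). At least a 2-fold difference was found in 1254 calls (7.31%), 782 higher in males (4.56%) and 472 higher in females (2.75%). All 6 libraries of one sex lay above all 6 of the other for 886 genes on the male side (5.17%) and 639 on the female side (3.73%). The genes called higher in males took 19.5% to 35.1% of all counts in male libraries and 2.82% to 4.91% in female libraries. Without the 3 libraries with intestinal transcripts the calls numbered 1937, of which 1175 were toward males and 762 toward females, and 1626 of the 2749 were among them. Positive log2 fold changes below mean a higher level in males, and errors on them are standard errors (SE).

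Most tissue kallikreins were higher in males. The gene list held 14 tested members, and 13 of them were higher in males, with none higher in females and a median log2 fold change of 5.52. The same median over all genes tested was -0.02. Without Klk1, the 13 kallikreins took 6.79% to 13.5% of all counts in male libraries and 0.0546% to 0.584% in female libraries. Male and female libraries did not overlap for any of the 13. Klk1, the true tissue kallikrein that releases kinins from kininogen, stood apart from its 13 neighbours, as the levels below show.

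Promoter sequences are shown here for the genes that the male and female differences turn on. They were taken from RefSeq on the build GRCm38.p6, which is not the build of the counts, and cover the 250 bases before the listed start. The Egf promoter, at chr3:129755323-129755572 on the minus strand, belongs to the first of 2 listed starts. The Klk1b27 promoter is at chr7:44052040-44052289 on the plus strand, and that of Klk1 is at chr7:44225110-44225359 on the plus strand. The Smgc promoter, of the gene with the largest difference toward females, is at chr15:91838078-91838327 on the plus strand. Capitals mark the hexamers TTTAAA or TATAAA, read on the gene's own strand.
Egf: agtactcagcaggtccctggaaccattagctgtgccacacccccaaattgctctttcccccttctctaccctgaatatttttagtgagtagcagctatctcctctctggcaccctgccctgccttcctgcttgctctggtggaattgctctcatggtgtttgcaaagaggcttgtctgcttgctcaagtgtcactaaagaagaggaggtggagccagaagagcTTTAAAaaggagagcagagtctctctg
Klk1b27: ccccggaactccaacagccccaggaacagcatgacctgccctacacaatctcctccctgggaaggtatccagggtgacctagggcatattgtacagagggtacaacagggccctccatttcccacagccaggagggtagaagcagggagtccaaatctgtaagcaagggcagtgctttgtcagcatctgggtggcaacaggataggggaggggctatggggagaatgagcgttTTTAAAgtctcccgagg
Klk1: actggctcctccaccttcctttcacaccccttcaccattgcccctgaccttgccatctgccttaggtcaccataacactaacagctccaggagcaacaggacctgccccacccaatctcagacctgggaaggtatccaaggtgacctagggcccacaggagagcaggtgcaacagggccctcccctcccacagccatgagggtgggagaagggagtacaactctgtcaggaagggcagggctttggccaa
Smgc: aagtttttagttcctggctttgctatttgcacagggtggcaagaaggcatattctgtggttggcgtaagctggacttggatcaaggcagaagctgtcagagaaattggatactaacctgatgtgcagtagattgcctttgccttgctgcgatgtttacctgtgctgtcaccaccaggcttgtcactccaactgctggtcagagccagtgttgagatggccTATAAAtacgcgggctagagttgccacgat

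TTTAAA began 27 bases before the start in Egf and 17 bases before it in Klk1b27, and TATAAA began 30 bases before the start in Smgc. The search window was 300 bases, from 250 before to 50 after each start. TTTAAA stood in 13 of 14 kallikrein windows (92.9%) and in 9.96% of the 16188 windows of all genes tested. TATAAA stood in 0 of the 14 and in 5.16% of all windows. The kallikrein windows are copies of each other, so they are not independent. The Klk1 window held neither hexamer. Its bases 74 to 300 aligned to bases 7 to 232 of the Klk1b27 window with 80.3% identity over 228 columns. The hexamer of Klk1b27 begins at base 234, just past the end of that alignment. The Klk1 window ends there too, so the matching site of Klk1 was not searched. AGAACA, the half-site that steroid receptors of the glucocorticoid type bind, was searched on both strands. It stood in 14.3% of the kallikrein windows, 15.2% of the windows of genes at least 2-fold higher in males, 17.7% of those at least 2-fold higher in females and 13.8% of all windows. The full palindrome, this half-site and its reverse complement 3 bases apart, stood in 2 of all 16188 windows. These matches describe letters in a short window and are no evidence of binding.

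Among the kallikreins, Klk1b8 had the largest difference. It was 1995, 5618 and 6889.6 CPM in males and 14.5, 32.5 and 61.4 CPM in females, a log2 fold change of 7.12 ± 0.53 (SE, adjusted p = 1.95e-06). Klk1b27 was 910.4, 3135 and 6356 CPM in males and 13.7, 30.1 and 49.9 CPM in females, with 6.76 ± 0.47 (SE, adjusted p = 1.17e-06). Klk1b3 was 2249, 4703 and 9716 CPM in males and 21.04, 82.9 and 103 CPM in females, with 6.20 ± 0.47 (SE, adjusted p = 2.16e-06). In all 3 the lowest male library was more than an order of magnitude above the highest female one. The most abundant were Klk1b26, at 20509, 34534 and 44367 CPM in males and 205, 914 and 2412 CPM in females, and Klk1b9, the epidermal growth factor binding protein type C, at 6467, 15804 and 27445 CPM in males and 75.4, 343 and 480.2 CPM in females. Klk1b22, another binding protein of epidermal growth factor, was 6188, 11420 and 14136 CPM in males and 48.1, 281 and 477 CPM in females. Klk1b4 was 3768, 6575 and 10482 CPM in males and 32.9, 197 and 401 CPM in females. The log2 fold changes of these 4 ran from 4.94 in Klk1b26 to 5.77 in Klk1b9.

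The remaining 6 male-higher kallikreins were Klk1b1, Klk1b5, Klk1b11, Klk1b16, Klk1b21 and Klk1b24. Their male medians ran from 883 CPM in Klk1b24 to 8559 CPM in Klk1b16, and their female medians from 18.7 CPM in Klk1b24 to 676 CPM in Klk1b11. Klk1b5 and Klk1b11 had the smallest differences of the 13, with 3.74 ± 0.48 (SE, adjusted p = 1.54e-04) and 3.82 ± 0.46 (SE, adjusted p = 9.23e-05). Klk1 was 4271, 6665 and 7995 CPM in males and 2284, 19094 and 20645 CPM in females, and its log2 fold change was -1.17 ± 0.44 (SE, adjusted p = 0.0897), so it did not pass the test. Its female libraries were uneven: C57 female 1 had 2284 CPM, below every male, and the female median lay above the highest male. Without C57 female 1 it was called higher in females, at -1.41 (adjusted p = 0.00616), and without CD1 female 2 and C57 female 1 it was -1.58 (adjusted p = 4.30e-04). The kallikrein transcripts of the GENCODE M21 set are 83.8% to 93.8% identical to each other over the 11 members compared, and 0% to 5.26% of the 100-base stretches of each of the 14 members are found in another transcript. How far the counting split reads among members was not tested, so the value of a single member is uncertain.

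The kallikrein genes lie side by side on chromosome 7, and the following account of neighbours was made after their values were seen. Of the related peptidases Klk4 to Klk15 that precede them in the order of the table, only Klk8 and Klk15 passed the filter. Klk15 was higher in males, at 0.189 to 1.64 CPM against 0 to 0.384 CPM, and Klk8 was 0.153 to 1.13 CPM in males against 0.148 to 0.904 CPM in females and did not pass. The pseudogene Klk1b7-ps, between these peptidases and Klk1b8, was 8.98 to 45.9 CPM in males against 0.204 to 1.23 CPM in females. On the far side of Klk1, 2410002F23Rik was 319.8 to 601 CPM in males against 47.5 to 134 CPM in females, with 2.16 ± 0.24 (SE, adjusted p = 5.34e-05). Acp4, an acid phosphatase, lies beyond it and was 1.34 to 4.33 CPM in males against 0.0323 to 1.70 CPM in females, with an adjusted p of 0.00552. Male-higher genes thus lay on both sides of Klk1, which itself was not higher in males.

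Epidermal growth factor followed the kallikreins. Egf (chromosome 3, listed exon 129471223 to 129472204), the ligand of the receptor Egfr, was 20950, 37024 and 64934 CPM in males and 233, 871 and 1229 CPM in females. The sexes did not overlap, and the log2 fold change was 5.61 ± 0.42 (SE, adjusted p = 2.16e-06).

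**Figure D1:**
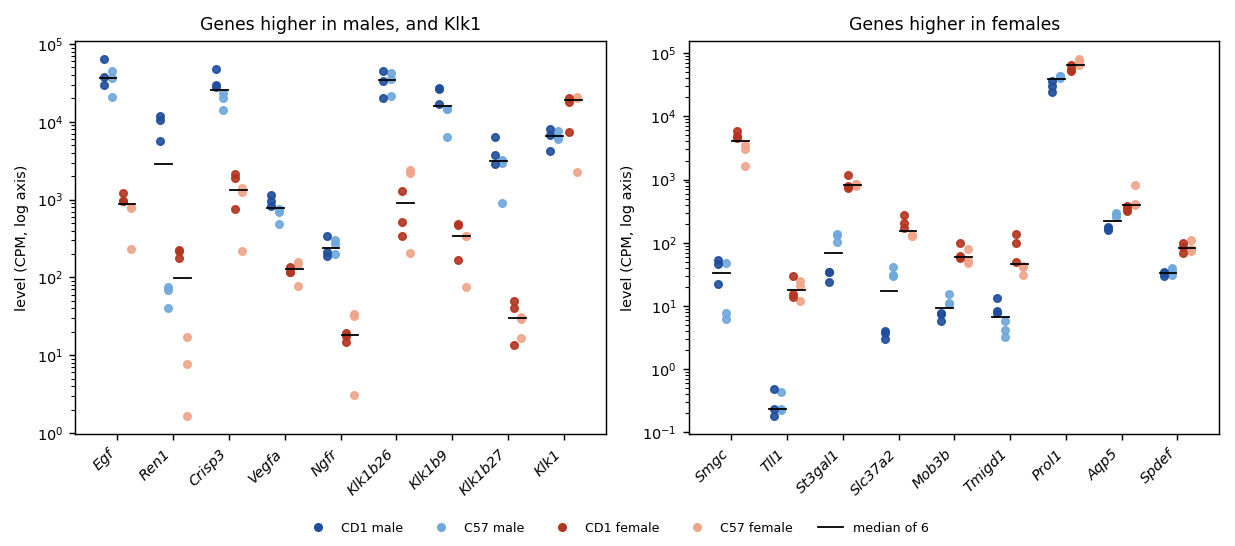
Levels of 9 genes higher in males or discussed with them (left) and 9 genes higher in females (right) in each of the 12 submandibular libraries, in CPM on log axes. Each point is 1 library, coloured by strain and sex, and lines mark the median of 6. Egf and Crisp3 do not overlap between the sexes, Smgc is higher in every female, and Klk1 and Ren1 overlap.

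Renin, the protease that cuts angiotensinogen, differed by sex, and its levels also differed between the strains. Ren1 (chromosome 1, listed exon 133278412 to 133278535) averaged 9417 ± 3278 CPM in the CD1 males against 207 ± 24.5 CPM in the CD1 females (SD, n = 3). The C57 males averaged 61.2 ± 18.3 CPM and the C57 females 8.78 ± 7.805 CPM (SD, n = 3). Its log2 fold change over both strains was 4.16 ± 0.64 (SE, adjusted p = 6.54e-04). Within each strain the 3 males lay above the 3 females, but CD1 females lay above C57 males, so the sexes overlap over all 12 libraries. The interaction of sex and strain was 2.71 on the log2 scale (adjusted p = 0.433) and did not pass. As background, some mouse strains carry a second renin gene, Ren2, which is nearly identical and is expressed in this gland, while the C57-based assembly lacks it. Whether CD1 reads counted under Ren1 come from such a copy was not tested. Agt, the precursor that renin cuts, was 228, 325 and 481 CPM in females and 48.96, 194 and 228 CPM in males, with -1.17 ± 0.33 (SE, adjusted p = 0.0293), and its call was lost in 4 of 12 leave-one-out fits (adjusted p up to 0.075, without CD1 male 1).

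The neighbours of Ren1 on chromosome 1 were also higher in males; they were chosen after their values were seen. Golt1a, a Golgi transport protein, was 7.11, 61.6 and 112 CPM in males and 0.0898, 0.221 and 0.624 CPM in females, with 7.77 ± 0.68 (SE, adjusted p = 5.72e-06). Kiss1, the precursor of kisspeptin, was 8.63, 68.7 and 85.8 CPM in males and 0.269, 0.475 and 1.098 CPM in females, with 6.77 ± 0.56 (SE, adjusted p = 4.08e-06). The unnamed gene Gm53474 between them was 21.7 to 251 CPM in males against 0.484 to 1.68 CPM in females. Unlike Ren1, Kiss1 had similar levels in males of the 2 strains, a contrast that was not tested: it averaged 64.2 ± 33.3 CPM in the CD1 males against 48.7 ± 35.3 CPM in the C57 males (SD, n = 3). On the far side of Ren1, Etnk2 (adjusted p = 0.124) and Sox13 (adjusted p = 0.839) did not pass. All of the 100-base stretches of the Kiss1 transcript and 37.4% of those of Golt1a are also found in the read-through transcript Gm28040, so the split of reads between these genes is uncertain.

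The cysteine-rich secretory proteins are a family best known from the epididymis and the salivary glands, and 4 of 9 tested members were higher in males, with none higher in females. Crisp3 was among the most abundant transcripts of the male gland, at 13985, 26032 and 47778 CPM in males and 221, 1319 and 2107 CPM in females, with 4.41 ± 0.47 (SE, adjusted p = 3.14e-05). Crisp1 was 224, 846 and 2441 CPM in males and 19.8, 28.8 and 70.2 CPM in females, with 4.96 ± 0.40 (SE, adjusted p = 3.67e-06). Both lie on chromosome 17, and for both every male exceeded every female. Crispld1 was 1.196, 4.67 and 6.14 CPM in males and 0.876, 1.18 and 1.59 CPM in females, and Pi16 was 4.22, 9.17 and 24.2 CPM in males and 2.53, 4.79 and 10.6 CPM in females, with 1.07 ± 0.33 (SE, adjusted p = 0.0417). The Pi16 call was lost in 8 of 12 leave-one-out fits (adjusted p up to 0.1, without C57 male 3). Pgk2, a testis-type phosphoglycerate kinase beside Crisp3, was 3.84 to 6.18 CPM in males against 0.769 to 2.78 CPM in females.

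Further genes with no overlap were higher in males. Syt16, a synaptotagmin-like protein of vesicle traffic, was 3.36, 16.8 and 39.8 CPM in males and 0, 0 and 0.125 CPM in females (adjusted p = 1.17e-06). No female library held more than 4 of its counts, so no fold is given. Sult1e1, the sulfotransferase that inactivates estrogens, was 22.2, 32.1 and 84.2 CPM in males and 0.0538, 0.153 and 0.362 CPM in females, with 7.68 ± 0.48 (SE, adjusted p = 5.58e-07). Kcns3, a modifier subunit of voltage-gated potassium channels, was 2.78, 13.2 and 18.5 CPM in males and 0, 0.0941 and 0.645 CPM in females, with 6.13 ± 0.70 (SE, adjusted p = 5.74e-05). All 3 were without overlap. Vegfa, the growth factor of blood vessels, was 486, 787 and 1155 CPM in males and 76.8, 127 and 158 CPM in females, with 2.67 ± 0.22 (SE, adjusted p = 4.56e-06). Prss23, a secreted serine protease, was 211, 281 and 419.9 CPM in males and 17.7, 40.1 and 51.96 CPM in females, with 3.01 ± 0.25 (SE, adjusted p = 4.79e-06). Neither of these overlapped between the sexes either, and both were well expressed in females.

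Steroid hormones act through nuclear receptors, and enzymes in the tissue set how much active hormone reaches them. Of 22 tested genes of steroid metabolism, 4 were higher in males (18.2%) and 1 in females (4.55%), with a median of 0.01. The shares over all genes were 8.66% and 7.37%. After Sult1e1 came Hsd11b1, which regenerates active glucocorticoid, at 54.4, 114 and 226 CPM in males and 13.5, 33.6 and 45.1 CPM in females, with 1.92 ± 0.37 (SE, adjusted p = 0.00279). Hsd17b4, a peroxisomal enzyme of fatty acid and steroid oxidation, was 143, 158 and 235 CPM in males and 76.7, 109 and 122 CPM in females, with 0.72 ± 0.16 (SE, adjusted p = 0.00665). The last of the 4 was Hsd3b7, at 0.63 ± 0.16 (SE). Akr1c14, a 3-alpha-hydroxysteroid dehydrogenase, was the one called higher in females, at 3.64, 4.86 and 6.97 CPM in females and 2.07, 2.698 and 3.71 CPM in males, with -0.81 ± 0.21 (SE, adjusted p = 0.0199), but its level is under 1% of that in another tissue's highest library and the call was lost in 2 of 12 leave-one-out fits (adjusted p up to 0.0528, without CD1 female 3). Hsd17b3, which makes testosterone from androstenedione in the testis, was singled out after its values were seen. It was 0.230, 0.961 and 9.52 CPM in males, and no female library held more than 2 of its counts. Set against a floor of 3 counts per library, its male mean was at least 41.0-fold higher, and that floor covers counting error only. Its highest levels were 7.45 CPM in CD1 male 1 and 9.52 CPM in CD1 male 2.

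Esr1, the estrogen receptor alpha, was under 1.5 CPM in all 12 libraries, with -0.41 ± 0.42 (SE, adjusted p = 0.563). Of 17 tested receptors and cofactors, 2 were higher in females (11.8%, against 7.37% of all genes) and none in males, and without the 3 libraries with intestinal transcripts 1 was. These were Nr3c1, the glucocorticoid receptor, at 34.2, 36.7 and 43.2 CPM in females and 22.3, 29.05 and 29.5 CPM in males with -0.44 ± 0.11 (SE, adjusted p = 0.0122), and Foxa1, a pioneer factor, at 56.3, 59.2 and 74.7 CPM in females and 24.8, 39.3 and 41.5 CPM in males with -0.74 ± 0.13 (SE, adjusted p = 0.00194). Neither overlapped between the sexes.

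The androgen response list holds genes that androgen raises in prostate cells. Of 84 tested, 13 were higher in males (15.5%) and 7 in females (8.33%), with a median of 0.03, against 8.66% and 7.37% of all genes. The male-higher members with the smallest p were Sgk1, a kinase that acts on sodium transport, at 134, 224 and 492 CPM in males and 13.2, 43.6 and 62.5 CPM in females, with 2.56 ± 0.36 (SE, adjusted p = 3.41e-04), and Fkbp5, a co-chaperone of steroid receptors, at 80.01, 137 and 171 CPM in males and 18.5, 34.2 and 47.7 CPM in females, with 1.88 ± 0.21 (SE, adjusted p = 4.58e-05). Tsc22d1 was 281, 441 and 606 CPM in males and 104, 159 and 190.4 CPM in females, with 1.56 ± 0.20 (SE, adjusted p = 1.33e-04). All 3 separated the sexes without overlap. Fkbp5 and Sgk1 are also classic targets of glucocorticoids, so these members do not tell the 2 hormones apart. On the female side, Spdef, an epithelial transcription factor, was 69.1, 82.9 and 111 CPM in females and 29.6, 33.6 and 39.5 CPM in males, with -1.34 ± 0.13 (SE, adjusted p = 1.64e-05), and Homer2 was 87.5, 120.3 and 158 CPM in females and 34.2, 63.3 and 74.2 CPM in males, with -1.04 ± 0.13 (SE, adjusted p = 1.32e-04).

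Granules are released by exocytosis, in which Rab proteins, synaptotagmins and SNARE proteins dock and fuse vesicles. Of 47 tested genes of this list, 9 were higher in males (19.1%) and 4 in females (8.51%), with a median of 0.41. The shares over all genes were 8.66% and 7.37%, so the female share was near that of all genes. Beside Syt16, the male-higher members were Cpe, a carboxypeptidase of secretory granules, at 105, 142 and 183 CPM in males and 15.1, 27.9 and 40.5 CPM in females with 2.49 ± 0.24 (SE, adjusted p = 1.52e-05), and the SNARE gene Stx7, at 233, 286 and 338 CPM in males and 73.7, 119 and 134 CPM in females with 1.40 ± 0.17 (SE, adjusted p = 9.60e-05). Among the other 6 were Unc13b (1.71), Cadps2 (1.06), Snap23 (1.02), Stx3 (0.57) and Rab27a (0.38), as log2 fold changes. The female-higher ones were Rab26, at 12.7, 22.5 and 32.1 CPM in females and 7.79, 11.6 and 16.1 CPM in males with -0.96 ± 0.17 (SE, adjusted p = 0.00186), Rab27b, at 45.6, 58.9 and 61.1 CPM in females and 18.6, 36.5 and 39.5 CPM in males with -0.82 ± 0.15 (SE, adjusted p = 0.00251), Syt3 (-0.76) and Rab3d (-0.74). Rab26, Rab27b and Rab3d are known from the zymogen granules of acinar cells. The summed level of the list was 2184 to 3005 CPM in males against 1352 to 1547 CPM in females, without overlap. In the wider secretory pathway, 2 of 44 tested genes were higher in males (4.55%, against 8.66% of all genes): Golt1a and Sec11a. Without the 3 libraries with intestinal transcripts, 3 were called higher in males and 2 in females. Sec11a is a signal peptidase subunit whose call was lost in 8 of 12 leave-one-out fits (adjusted p up to 0.0792, without CD1 male 2).

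Chaperones of the endoplasmic reticulum fold secreted proteins. Of 35 genes for folding and stress of this organelle, 12 were higher in males and 1 in females, with a median of 0.35. Hsp90b1, the chaperone GRP94, was 512, 762 and 1144 CPM in males and 246, 343 and 429 CPM in females, with 1.11 ± 0.22 (SE, adjusted p = 0.00307). Ero1a, the oxidase that recharges protein disulfide isomerases, was 29.8, 41.8 and 56.7 CPM in males and 17.4, 21.5 and 26.2 CPM in females, with 0.94 ± 0.11 (SE, adjusted p = 5.96e-05), and Hyou1 was 259.5, 363 and 695 CPM in males and 182, 213 and 236 CPM in females, with 0.94 ± 0.19 (SE, adjusted p = 0.00444). These 3 did not overlap between the sexes. The other male-higher members were Atf3, Pdia6, Creld2, Hspa5, Pdia4, Sel1l, Dnajb9, Dnajb11 and Atf6, with log2 fold changes from 0.50 in Atf6 to 1.38 in Atf3. Asns, an amino acid synthetase that responds to the same stress, was the female-higher one, at -0.53 ± 0.16 (SE, adjusted p = 0.0426), and its call was lost in 9 of 12 leave-one-out fits (adjusted p up to 0.11, without CD1 female 1). The strains differed in the median of this list, which was 0.74 in CD1 and 0.01 in C57, a difference that was not tested. The male count of 12 fell to 7 without CD1 female 1 and to 4 without the 3 libraries with intestinal transcripts.

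In glycolysis, 7 of 20 tested genes were higher in males and none in females, with a median of 0.43. Slc16a3, the exporter of lactate, was 6.15, 13.9 and 17.6 CPM in males and 0.866, 1.76 and 2.07 CPM in females, with 2.99 ± 0.23 (SE, adjusted p = 2.49e-06). Pfkm, a phosphofructokinase, was 137, 169 and 223 CPM in males and 54.4, 77.3 and 86.5 CPM in females, with 1.24 ± 0.16 (SE, adjusted p = 1.21e-04), and Gpi1 was 217, 269 and 306 CPM in males and 125, 176 and 231 CPM in females, with 0.59 ± 0.14 (SE, adjusted p = 0.0094). Slc16a3 and Pfkm separated the sexes and Gpi1 overlapped. The remaining 4 were Ldha (0.69), Pkm (0.52), Pfkl (0.50) and Gapdh (0.47), all under 2-fold. The count fell to 4 in each of 6 fits, those without C57 female 3, C57 male 1, C57 male 2, CD1 female 1, CD1 male 2 or CD1 male 3, and to 2, beside 1 female call, without the 3 libraries with intestinal transcripts. In the citrate cycle list, Pcx, which feeds the cycle with oxaloacetate, was the one call of 19 (5.26%, against 16.0% of all genes). It was 86.2, 96.5 and 116 CPM in females and 44.6, 64.2 and 70.1 CPM in males, with -0.67 ± 0.13 (SE, adjusted p = 0.00326).

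Protease inhibitors leaned to the males. Of 29 tested serpins, cystatins and related inhibitors, 10 were higher in males and 1 in females, with a median of 0.38. Cst6, cystatin E/M, was 9.14, 13.6 and 61.9 CPM in males and 0.0905, 0.622 and 0.8396 CPM in females, with 5.03 ± 0.52 (SE, adjusted p = 2.68e-05). Serpinb6a was 321, 609.9 and 1014 CPM in males and 31.4, 75.8 and 100.2 CPM in females, with 3.20 ± 0.33 (SE, adjusted p = 2.69e-05), and Serpinb1a, an inhibitor of neutrophil elastase, was 81.04, 135 and 167 CPM in males and 7.19, 22.1 and 31.3 CPM in females, with 2.63 ± 0.33 (SE, adjusted p = 1.33e-04). These 3 had no overlap. Wfdc3 (4.16), Serpinb11 (2.21), Cst3 (1.33), Serpinb5 (1.18), Serpine2 (0.82) and Serpinf1 (0.59) were also male-higher members, as log2 fold changes. Serpina1d, a liver antitrypsin with a level under 1% of another tissue's, was called higher in females, at -0.65 ± 0.21 (SE, adjusted p = 0.0468), and lost that call in 11 of 12 leave-one-out fits (adjusted p up to 0.106, without CD1 female 3).

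Antimicrobial proteins of saliva were split, with 3 of 21 tested higher in males and 3 in females (14.3% each, against 8.66% and 7.37% of all genes). Leaving out the 3 libraries with intestinal transcripts left 1 male and no female call. Of the genes called over all 12 libraries, 2 had a level under 1% of that in another tissue's highest library. Lcn2, which binds bacterial siderophores, was 16.7, 68.2 and 119 CPM in males and 2.03, 2.95 and 4.54 CPM in females, with 4.30 ± 0.45 (SE, adjusted p = 2.61e-05). Wfdc12, a whey acidic protein with antibacterial activity, was 744, 1521 and 4828 CPM in males and 260.1, 502 and 704 CPM in females, with 2.16 ± 0.43 (SE, adjusted p = 0.00359). Both separated the sexes, while Dmbt1 did not and lost its call in 8 of 12 leave-one-out fits (adjusted p up to 0.101, without C57 male 2). Lpo, the salivary lactoperoxidase, was 1136, 1291 and 1566 CPM in females and 352, 880.1 and 945 CPM in males, with -0.78 ± 0.20 (SE, adjusted p = 0.0157) and no overlap. The other female calls, Azgp1 (-0.80 ± 0.22) and Pigr (-0.92 ± 0.26), were lost too: Azgp1 in 5 of 12 (adjusted p up to 0.0726, without C57 male 2) and Pigr in 7 of 12 (adjusted p up to 0.0837, without CD1 female 1). Among 29 pheromone carriers and peptides 1 was called (3.45%, against 16.0% of all genes), Mup6. It was 1.15, 1.999 and 4.67 CPM in males and 0.136, 0.823 and 1.23 CPM in females, and it lost that call in 9 of 12 leave-one-out fits (adjusted p up to 0.0952, without CD1 female 1). None of the 15 tested secretoglobins was called by edgeR over the 12 libraries, where 2 had an unadjusted p under 0.05, DESeq2 called 1 higher in females and limma-voom called none. By edgeR 2 were called higher in females without CD1 female 2 and C57 female 1, and 1 higher in males without the 3 libraries with intestinal transcripts.

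The female side was led by Smgc, the submandibular gland protein C of the intercalated duct secretory cells. Smgc (chromosome 15, listed exon 91722531 to 91722623) was 1613, 4037 and 5788 CPM in females and 6.15, 33.8 and 53.96 CPM in males, with -7.01 ± 0.57 (SE, adjusted p = 3.36e-06). Every female level was more than an order of magnitude above every male level. Smgc shares its listed first exon with Muc19, the large mucin of the sublingual gland. Muc19 was 47.0 to 174 CPM in females against 55.5 to 161 CPM in males and did not pass (adjusted p = 0.829).

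Tll1, a protease of the tolloid family that processes procollagen and frees bone morphogenetic proteins, was 11.9, 17.7 and 29.97 CPM in females and 0.178, 0.233 and 0.476 CPM in males, with -5.98 ± 0.33 (SE, adjusted p = 2.23e-07). Slc37a2, a phosphate-linked sugar transporter, was 128, 154 and 275 CPM in females and 3.003, 16.96 and 40.7 CPM in males, with -3.88 ± 0.67 (SE, adjusted p = 0.00136). Tmigd1, an adhesion molecule of epithelia, was 30.3, 46.6 and 138 CPM in females and 3.22, 6.78 and 13.2 CPM in males, with -3.21 ± 0.25 (SE, adjusted p = 2.49e-06). In these 3 genes all females exceeded all males. Gucy2c, the receptor of guanylin, was 23.1, 27.6 and 45.3 CPM in females and 0.707, 5.05 and 7.503 CPM in males, with -2.84 ± 0.40 (SE, adjusted p = 3.11e-04), and Mob3b was 47.1, 59.3 and 99.04 CPM in females and 5.85, 9.36 and 15.4 CPM in males, with -2.79 ± 0.25 (SE, adjusted p = 7.07e-06). Gucy2c and Tmigd1 are known from the gut lining, and both were present in all 6 female libraries. In the 3 libraries with intestinal transcripts Gucy2c was 45.3, 30.6 and 27.5 CPM, the highest females of each strain, against 23.1 to 27.7 CPM in the other 3. Tmigd1 was 98.5, 49.9 and 30.3 CPM in the same libraries, against 41.7 to 138 CPM in the other 3. The part of those transcripts in these differences was not tested. Frmpd1, Asgr2, Kcnip3 and Fads2b closed the list of the largest female differences, with log2 fold changes of -2.41 ± 0.26, -2.22 ± 0.36, -1.97 ± 0.26 and -1.94 ± 0.37 (SE).

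Mucin-type glycans are built on serine or threonine from GalNAc and capped with sialic acid. Of 41 tested enzymes, 10 were higher in males and 8 in females. The 2 sexes differed in the sialyltransferases. St3gal1, which adds sialic acid to the galactose of core 1, was 735, 825 and 1189.8 CPM in females and 23.8, 67.99 and 137 CPM in males, with -3.81 ± 0.38 (SE, adjusted p = 1.74e-05). St3gal4 was 399, 452 and 671 CPM in females and 25.2, 102 and 185 CPM in males, with -2.63 ± 0.35 (SE, adjusted p = 1.87e-04). St6galnac1, which adds sialic acid to the GalNAc, was the reverse, at 8.28, 28.5 and 48.3 CPM in males and 1.09, 1.83 and 5.34 CPM in females, with 3.72 ± 0.41 (SE, adjusted p = 3.90e-05). St6galnac2 was 46.8, 74.04 and 96.7 CPM in males and 6.399, 8.75 and 12.8 CPM in females, with 2.97 ± 0.16 (SE, adjusted p = 1.72e-07). Each of the 4 separated the sexes, the St3gal pair high in females and the St6galnac pair high in males. Galnt18, which starts such chains, was 17.997, 26.4 and 39.1 CPM in males and 4.65, 5.92 and 12.8 CPM in females, and the other male-higher members were B3gnt2, Galnt1, Fut4, Galnt2, C1galt1, Galnt10 and St6galnac6. B4galt1 was 72.4, 85.9 and 96.4 CPM in females and 37.8, 46.7 and 60.2 CPM in males, with -0.86 ± 0.11 (SE, adjusted p = 1.01e-04), and the other female-higher members were Gcnt3 (-3.06 ± 0.80), Galnt5, Gcnt2, Fut8 and Galnt7. The summed level of the list was 734 to 1112 CPM in males against 1934 to 2617 CPM in females. Without St3gal1 and St3gal4 it was 685 to 971 CPM against 656 to 1028 CPM, so this pair carries the separation, and the C57 females (656 to 747 CPM) then lay below the C57 males (765 to 839 CPM).

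Markers of acinar cells were higher in females. Of 19 tested, 12 were higher in females and 2 in males, with a median of -0.73. Aqp5, the water channel of acinar cells, was 322, 392 and 832 CPM in females and 157, 217 and 296 CPM in males, with -1.01 ± 0.18 (SE, adjusted p = 0.00165). Lman1l was 14.8, 28.1 and 50.5 CPM in females and 4.24, 6.88 and 10.95 CPM in males, with -1.92 ± 0.27 (SE, adjusted p = 2.94e-04), and Chrm3, the muscarinic receptor that starts secretion, was 34.1, 38.3 and 45.9 CPM in females and 18.98, 22.6 and 30.4 CPM in males, with -0.76 ± 0.12 (SE, adjusted p = 7.70e-04). Bhlha15, the transcription factor MIST1 of secretory cells, was 496, 578 and 649 CPM in females and 315, 436 and 468 CPM in males, with -0.52 ± 0.13 (SE, adjusted p = 0.0134). None of these 4 overlapped. Prol1 was the gene with the largest difference in mean level toward females, at 52039, 64982 and 81958 CPM in females and 24565, 38531 and 44246 CPM in males, with -0.87 ± 0.26 (SE, adjusted p = 0.0362), and its call was lost in 7 of 12 leave-one-out fits (adjusted p up to 0.0687, without CD1 male 3). The other female-higher members were Agr2, Creb3l1, Lpo, Kcnn4, Slc12a2 and Etv1, and Spdef, given above. Smr2, a submaxillary peptide gene, was the exception, at 0.714, 1.12 and 8.77 CPM in males and 0, 0.1098 and 0.215 CPM in females, with 4.10 ± 0.85 (SE, adjusted p = 0.00467). Tfcp2l1, also known from ducts, was 632, 888 and 1169 CPM in males and 351, 569.8 and 697 CPM in females and lost its call in 8 of 12 leave-one-out fits (adjusted p up to 0.119, without CD1 male 2). Pip, Car6, Smr3a, Bpifa2 and Ano1 did not pass. Summed over the list, the level was 79817 to 112880 CPM in males against 104460 to 180460 CPM in females, and the sexes overlapped. Without the 3 libraries with intestinal transcripts 8 members were called higher in females and 1 in males.

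Duct markers did not move as one. Of 11 intercalated duct markers, 3 were higher in each sex. On the female side Smgc was joined by Sox9, a duct transcription factor, at 67.2, 85.5 and 151 CPM in females and 26.7, 53.8 and 66.6 CPM in males, with -0.95 ± 0.22 (SE, adjusted p = 0.00963), and by Gstt1 at -0.84 ± 0.17. On the male side were Lcn2, Krt19 (1.29 ± 0.30 (SE, adjusted p = 0.00893)) and Clu (0.95 ± 0.16 (SE, adjusted p = 0.00137)). The demilune and parotid protein genes Dcpp1, Dcpp2 and Dcpp3 had log2 fold changes of 0.01 ± 0.19, 0.01 ± 0.32 and -1.08 ± 0.72 (SE) and did not pass. Among 20 striated and excretory duct markers, 3 were higher in males and 5 in females. Cftr, the chloride channel, was 26.5, 43.8 and 88.4 CPM in males and 7.95, 20.9 and 25.4 CPM in females, with 1.38 ± 0.19 (SE, adjusted p = 3.25e-04). Scnn1b, a subunit of the epithelial sodium channel, was 133, 185 and 207 CPM in males and 35.1, 86.4 and 104 CPM in females, with 1.19 ± 0.22 (SE, adjusted p = 0.00253), and the keratin Krt7 was 209, 237 and 272 CPM in males and 74.95, 134 and 155 CPM in females. Scnn1b, Cftr and Krt7 had no overlap. Kcnma1 (-0.75 ± 0.15), a potassium channel of potassium secretion, Slc26a6 (-1.04 ± 0.13), an anion exchanger, and Slc5a8 (-0.83 ± 0.18), a monocarboxylate transporter, led the female-higher members.

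Markers of the contractile cells of the epithelium were higher in males. All 8 tested myoepithelial markers were higher in males, with a median of 1.40 and no female call. Actg2, the enteric smooth muscle actin, was 4.55, 11.6 and 19.3 CPM in males and 0.5302, 1.37 and 2.03 CPM in females, with 3.05 ± 0.30 (SE, adjusted p = 1.75e-05). Cnn1, calponin, was 85.1, 104 and 109 CPM in males and 15.6, 30.1 and 36.1 CPM in females, with 1.85 ± 0.18 (SE, adjusted p = 1.16e-05), and Mylk, the kinase that starts contraction, was 116, 142 and 163 CPM in males and 48.7, 59.2 and 70.97 CPM in females, with 1.21 ± 0.13 (SE, adjusted p = 3.74e-05). None of these overlapped. Acta2 (1.56), Myh11 (1.49), Myl9 (1.30), Smtn (0.79) and Lmod1 (0.78) were the others, and smooth muscle of vessels also expresses these genes. The summed level was 828 to 1243 CPM in males against 338 to 438 CPM in females. Endothelial markers did not share this: none of 10 was called by edgeR, 2 had an unadjusted p under 0.05, DESeq2 called 1 higher in females and limma-voom called none.

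Of 8 basal duct markers, 4 were higher in males and 2 in females. Ngfr, the p75 neurotrophin receptor, was 186, 241 and 339 CPM in males and 3.08, 18.3 and 34.4 CPM in females, with 3.65 ± 0.44 (SE, adjusted p = 8.45e-05). Krt14 was 54.7, 60.1 and 77.2 CPM in males and 20.1, 33.4 and 39.5 CPM in females, with 0.96 ± 0.15 (SE, adjusted p = 7.80e-04), and Krt17 was 17.5, 23.5 and 36.2 CPM in males and 3.91, 8.34 and 12.4 CPM in females, with 1.55 ± 0.26 (SE, adjusted p = 0.00127). These 3 were without overlap, and Krt5 was 0.43 ± 0.13 (SE). On the female side, Itgb4 was 85.4, 102 and 173 CPM in females and 39.5, 62.5 and 89.5 CPM in males, with -0.82 ± 0.21 (SE, adjusted p = 0.0172), and Krt15 was -1.27 ± 0.40 and lost its call in 10 of 12 leave-one-out fits (adjusted p up to 0.106, without CD1 female 1). Trp63, the master factor of basal cells, was -0.12 ± 0.14 (SE, adjusted p = 0.619) and did not pass. Of 8 ionocyte markers, 2 were higher in males and 2 in females. P2ry14, a receptor of UDP-glucose, was 14.5, 23.8 and 43.1 CPM in males and 1.73, 2.5003 and 4.93 CPM in females, with 3.27 ± 0.26 (SE, adjusted p = 2.49e-06), and Atp6v1g3, a proton pump subunit, was 2.07, 3.17 and 16.7 CPM in males and 0.0646, 0.276 and 1.37 CPM in females. The pump subunit Atp6v1b1 (-0.79 ± 0.14) and the transcription factor Ascl3 (-0.82 ± 0.22) were higher in females, so the list gave no single direction. The Ascl3 call was lost in 1 of 12 leave-one-out fits (adjusted p up to 0.0535, without CD1 female 3). Dclk1, the one tuft cell call of 5 (20%, against 16.0% of all genes), was higher in females, at -0.70 ± 0.17 (SE, adjusted p = 0.0136). The median of the 5 markers was 0.64, on the male side. The calls without the 3 libraries with intestinal transcripts were 4 male and no female for basal duct markers, 1 male and 3 female for ionocytes and none for tuft cells.

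Of 14 markers of macrophages and dendritic cells, 8 were higher in males and none in females, with a median of 0.98. Csf1r, the receptor that keeps macrophages alive, was 38.1, 42.02 and 59.5 CPM in males and 12.2, 25.5 and 35.98 CPM in females, with 0.85 ± 0.20 (SE, adjusted p = 0.0116), and Mrc1 was 15.7, 21.3 and 23.5 CPM in males and 1.57, 9.998 and 10.7 CPM in females, with 1.27 ± 0.32 (SE, adjusted p = 0.0154). The sexes did not overlap in either gene. Also higher were Adgre1 (1.57), Itgam (1.57), C1qa (0.93), C1qb (1.05) and C1qc (1.05). The antigen presentation genes Cd74, H2-Aa and H2-Ab1 and the dendritic cell integrin Itgax did not pass. The summed level was 479 to 930.2 CPM in males against 236 to 530.0 CPM in females, with overlap. The count depended on single libraries: it was 4 without C57 female 1, C57 female 3 or CD1 male 1, 5 without C57 male 3 or CD1 male 2, 4 without CD1 female 2 and C57 female 1 together, and 1 without the 3 libraries with intestinal transcripts.

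Among the other cell types, fibroblast markers gave 2 calls of 11 (18.2%, against 16.0% of all genes), Lum (0.77 ± 0.24 (SE, adjusted p = 0.0428)) and Pi16, both higher in males, and Lum lost its call in 9 of 12 leave-one-out fits (adjusted p up to 0.104, without C57 female 3). No fibroblast marker was called without the 3 libraries with intestinal transcripts, nor without CD1 female 2 and C57 female 1. Lyve1, a marker of lymphatic vessels, was 2.62, 5.296 and 6.37 CPM in males and 0.539, 1.29 and 1.72 CPM in females, with 1.99 ± 0.30 (SE, adjusted p = 5.40e-04), without overlap. It was the one call of 6 tested lymph node stroma markers (16.7%, against 16.0% of all genes), whose summed levels overlapped between the sexes. The median of that list was -0.11 in CD1 and 1.29 in C57, a difference that was not tested. Of 6 red blood cell genes 2 were higher in males (33.3%), and 1 in each of those fits, among them Slc4a1 (2.28 ± 0.58, SE), while the globins did not pass. By edgeR none of the 10 T cell markers, 10 B cell markers, 6 mast cell markers, 12 adipocyte markers, 11 skeletal muscle markers or 5 parotid acinar markers was called. At an unadjusted p under 0.05 there were 1, 0, 1, 1, 0 and 0 of them, and DESeq2 and limma-voom called none. Without the 3 libraries with intestinal transcripts edgeR called 1 adipocyte marker higher in females and 1 parotid acinar marker higher in males. Pigr, the antibody transporter, was the one call in the plasma cell list of 10 (10%, against 16.0% of all genes), and it was not called without those 3 libraries. Pigr was higher in females, while the median of the list was 0.58, on the male side.

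**Figure D2:**
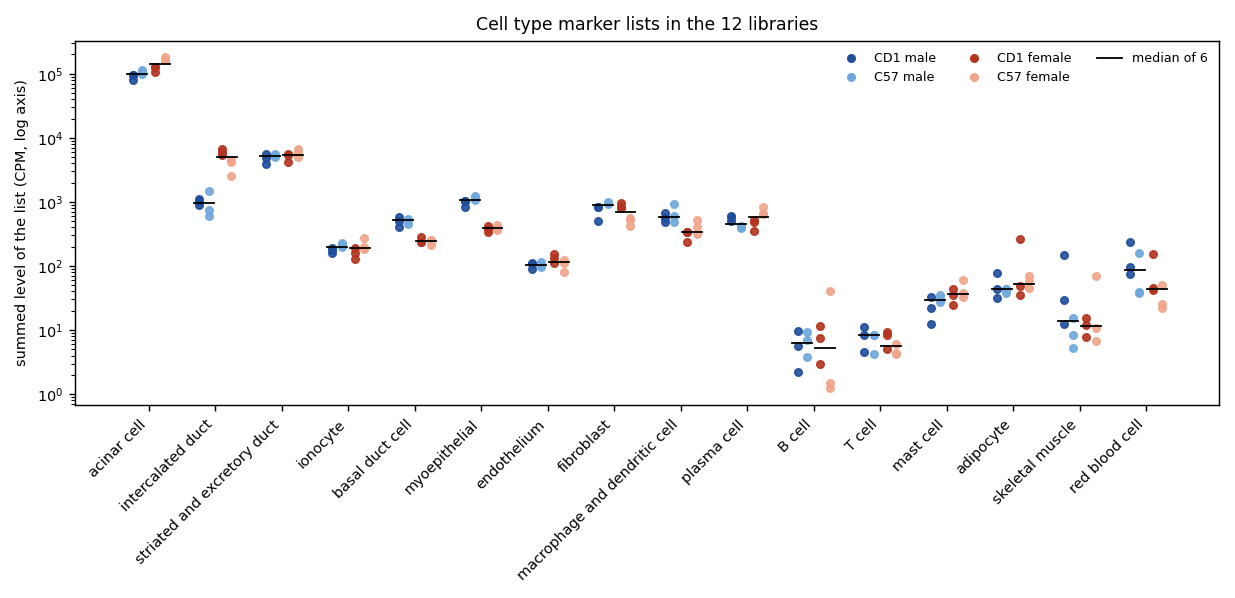
Summed CPM of the marker genes of each cell type in the 12 submandibular libraries, on a log axis, with 1 point per library coloured by strain and sex and lines at the median of 6. Myoepithelial sums lie higher in every male than in any female, and acinar sums overlap. The intercalated duct sums separate through Smgc (without it, 607 to 1450 CPM in males against 641 to 1462 CPM in females). Basal duct sums overlap once Ngfr is left out (males 221 to 295 CPM, females 209 to 272 CPM). With the female-higher Itgb4 left out as well, these sums separate again (males 169 to 232 CPM, females 99.5 to 135 CPM).

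Secretion of water and salt rests on channels and exchangers. Of 32 aquaporin and acid-base genes, 3 were higher in males (9.38%) and 7 in females (21.9%), with a median of -0.34. The shares over all genes were 8.66% and 7.37%. Car12, a membrane carbonic anhydrase, was 159, 245 and 272 CPM in females and 61.8, 103 and 128 CPM in males, with -1.28 ± 0.15 (SE, adjusted p = 7.32e-05), and Slc26a6 was 16.3, 21.7 and 29.8 CPM in females and 7.78, 11.2 and 13.5 CPM in males, with -1.04 ± 0.13 (SE, adjusted p = 8.84e-05). Car13, a cytosolic carbonic anhydrase, was 49.8, 73.5 and 132 CPM in males and 7.45, 18.6 and 25.3 CPM in females, with 2.24 ± 0.25 (SE, adjusted p = 4.58e-05). In all 3 the sexes were separate. Slc9a2 (0.56 ± 0.16) was called higher in males and lost that call in 5 of 12 leave-one-out fits (adjusted p up to 0.0714, without CD1 male 2). Slc4a7, Slc4a11, Slc9a3 and Slc9a4 were the remaining female-higher members beside Aqp5, with log2 fold changes from -0.79 to -0.47. Leaving out the 3 libraries with intestinal transcripts gave 1 male and 5 female calls.

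Amino acid transporters feed protein synthesis. Of 29 tested, 5 were higher in males and 10 in females, with a median of -0.33. Slc38a1 was 76.6, 86.97 and 116 CPM in females and 19.1, 38.6 and 42.5 CPM in males, with -1.31 ± 0.19 (SE, adjusted p = 3.29e-04), and its relative Slc38a2 was the reverse, at 148, 205 and 277 CPM in males and 100.2, 121 and 150.4 CPM in females, with 0.75 ± 0.16 (SE, adjusted p = 0.00715). The glutamate transporter Slc1a3 was 14.999, 17.8 and 28.3 CPM in females and 9.49, 10.6 and 13.003 CPM in males, with -0.83 ± 0.14 (SE, adjusted p = 0.00121), and Slc1a2 was 2.25, 3.28 and 4.04 CPM in females and 1.105, 1.28 and 2.24 CPM in males, with -1.12 ± 0.18 (SE, adjusted p = 8.96e-04). Slc7a8 was 27.9, 42.6 and 47.04 CPM in males and 5.52, 18.1 and 22.2 CPM in females, with 1.30 ± 0.26 (SE, adjusted p = 0.00405), while Slc7a5, which carries the same large neutral amino acids, was -1.26 ± 0.27 (SE). Slc7a6 was 0.75 ± 0.14 (SE). Without the 3 libraries with intestinal transcripts, 5 were called in each direction.

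Lipid synthesis genes had calls in both directions. Of 23 fatty acid synthesis genes, 2 were higher in males (8.70%) and 6 in females (26.1%), against 8.66% and 7.37% of all genes. Acly, which supplies acetyl-CoA, was 293, 324 and 343 CPM in females and 122, 194 and 219.7 CPM in males, with -0.84 ± 0.14 (SE, adjusted p = 0.00136), and Srebf1, the factor that drives such genes, was 134, 155 and 259.6 CPM in females and 61.9, 103 and 122 CPM in males, with -0.84 ± 0.18 (SE, adjusted p = 0.00641). The elongases went the other way: Elovl6 was 13.8, 25.3 and 33.6 CPM in males and 8.47, 11.8 and 14.5 CPM in females, with 1.06 ± 0.17 (SE, adjusted p = 7.04e-04), and Elovl7 was 49.5, 102 and 123 CPM in males and 13.1, 37.7 and 45.7 CPM in females, with 1.47 ± 0.28 (SE, adjusted p = 0.00259). Acly, Srebf1 and Elovl7 did not overlap, and Elovl6 overlapped slightly. Dgat2 (-1.06), Fads2 (-0.70), Scd2 (-0.57) and Gpam (-0.49) were the other female-higher members. In cholesterol synthesis Sc5d was 56.4, 81.95 and 149 CPM in males and 28.5, 37.2 and 46.1 CPM in females, with 1.26 ± 0.19 (SE, adjusted p = 4.62e-04). Lss was 29.7, 43.3 and 47.98 CPM in females and 19.1, 26.6 and 36.99 CPM in males, with -0.67 ± 0.14 (SE, adjusted p = 0.00466). The other 21 genes did not pass. The share called was 4.35% in each direction, below the 8.66% and 7.37% of all genes. Of 19 fatty acid oxidation genes, 2 were higher in each sex (10.5%, against 8.66% and 7.37% of all genes). Hadh (0.76 ± 0.16) and Cpt2 (0.51 ± 0.11) were higher in males. Ppargc1a, a coactivator of mitochondrial genes, was 29.3, 40.9 and 53.2 CPM in females and 12.1, 21.6 and 26.1 CPM in males, with -1.03 ± 0.11 (SE, adjusted p = 4.00e-05), and Ppara (-0.61 ± 0.17) was also higher in females, a call that was lost in 5 of 12 leave-one-out fits (adjusted p up to 0.0601, without C57 female 3).

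Redox genes had calls in both directions as well. Of 33, 6 were higher in males and 7 in females. Gclc, the enzyme that limits glutathione synthesis, was 33.4, 68.97 and 130.5 CPM in males and 15.9, 19.5 and 22.5 CPM in females, with 1.78 ± 0.23 (SE, adjusted p = 1.54e-04), Gsto1 was 46.7, 76.6 and 117 CPM in males and 13.2, 28.9 and 39.7 CPM in females, with 1.52 ± 0.21 (SE, adjusted p = 3.30e-04), and Gpx1 was 278, 352 and 542 CPM in males and 98.6, 199.6 and 257 CPM in females, with 0.92 ± 0.23 (SE, adjusted p = 0.0141). None of these overlapped. On the female side were the theta and mu transferases Gstt1, Gstt3, Gstm1, Gstm2 and Gstm7, with Aldh3a1 (-1.31 ± 0.22 (SE, adjusted p = 0.00131)) and Fmo1 (-1.06). Gstt3 was 31.1, 41.8 and 47.5 CPM in females and 21.2, 23.6 and 25.8 CPM in males, with -0.80 ± 0.12 (SE, adjusted p = 5.79e-04). The female count fell from 7 to 4 in 6 of the fits without 1 library, and the male count from 6 to 3 without the 3 libraries with intestinal transcripts.

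Clock genes were higher in females where they differed. Of 19 tested, 9 were higher in females and none in males, with a median of -0.70. Rora, a nuclear receptor that activates clock targets, was 24.6, 32.98 and 55.2 CPM in females and 8.44, 14.5 and 16.6 CPM in males, with -1.41 ± 0.21 (SE, adjusted p = 5.14e-04). Cry2, a repressor of the clock, was 22.2, 29.8 and 41.2 CPM in females and 11.2, 16.03 and 22.6 CPM in males, with -0.86 ± 0.17 (SE, adjusted p = 0.00356), and Dbp, a strongly rhythmic output factor, was 63.4, 94.9 and 224 CPM in females and 20.3, 50.5 and 83.9 CPM in males, with -1.28 ± 0.28 (SE, adjusted p = 0.00632). Rora separated the sexes, and the other 2 overlapped slightly. The others were Nr1d1, Ciart, Nfil3, Hlf, Per3 and Tef, from -0.98 in Nr1d1 to -0.63 in Tef. Bmal1 was 0.50 ± 0.26 (SE, adjusted p = 0.22) and Clock 0.12 ± 0.09 (SE, adjusted p = 0.42). The count was 5 without C57 female 1 and 5 without the 3 libraries with intestinal transcripts. The labels used here give no hour of dissection, and its part in this result was not tested.

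The immediate early genes, which handling can raise within minutes, gave 3 calls of 21 (14.3%, against 16.0% of all genes), all higher in males. These were Atf3 (1.38 ± 0.35 (SE, adjusted p = 0.0154)), Ier3 (1.59 ± 0.48 (SE, adjusted p = 0.037)) and Jun (0.71 ± 0.22 (SE, adjusted p = 0.0443)), and the latter pair lost their calls: Ier3 in 7 of 12 (adjusted p up to 0.114, without C57 male 2) and Jun in 7 of 12 (adjusted p up to 0.131, without CD1 male 2) of the fits without 1 library. Of the 19 heat shock and hypoxia genes, Vegfa and Ddit4 (0.93 ± 0.18 (SE, adjusted p = 0.00349)) were higher in males, and Hsf1 (-0.31 ± 0.10 (SE, adjusted p = 0.0452)) was called higher in females and lost that call in 10 of 12 leave-one-out fits (adjusted p up to 0.117, without C57 male 1). Of 36 interferon response genes, Oas2 (0.97 ± 0.27) was higher in males and Stat2 (-0.51 ± 0.12) in females, and Oas2 lost its call in 4 of 12 leave-one-out fits (adjusted p up to 0.0637, without CD1 female 1). The shares called were 15.8% of the heat shock and hypoxia genes and 5.56% of the interferon response genes, against 16.0% of all genes. The interferon list without the 3 libraries with intestinal transcripts had no male and 6 female calls, the immediate early list none, and the heat shock and hypoxia list 2 male and no female calls.

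Other growth factor systems showed changes in ligands and receptors. Of 15 genes of the epidermal growth factor family and its receptors, Egf and Nrg2 (0.72 ± 0.19 (SE, adjusted p = 0.0226)) were higher in males. Erbb4 (-0.83 ± 0.21 (SE, adjusted p = 0.0144)), Tgfa (-0.59 ± 0.18 (SE, adjusted p = 0.0404)) and Erbb2 (-0.49 ± 0.15 (SE, adjusted p = 0.0442)) were called higher in females, and the Tgfa call was lost in 10 of 12 leave-one-out fits (adjusted p up to 0.0892, without C57 female 3). Nrg2 and Erbb2 lost theirs in 4 of 12 (adjusted p up to 0.0552, without C57 male 2) and 11 of 12 (adjusted p up to 0.104, without CD1 male 1). With the 3 libraries with intestinal transcripts left out the family had 2 male and no female calls. Egfr itself was -0.27 ± 0.14 (SE, adjusted p = 0.232). Of 36 fibroblast, hepatocyte, insulin-like and WNT signals, 4 were higher in each sex (11.1%, against 8.66% and 7.37% of all genes). Igfbp2, which binds insulin-like growth factors, was 32.9, 52.3 and 70.6 CPM in males and 9.296, 11.5 and 16.3 CPM in females, with 2.10 ± 0.20 (SE, adjusted p = 1.00e-05). Fgf1 was 69.3, 96.8 and 219 CPM in males and 26.04, 34.6 and 37.4 CPM in females, with 1.75 ± 0.25 (SE, adjusted p = 3.97e-04), and Wnt4 was 83.3, 123 and 191 CPM in males and 44.3, 54.6 and 71.6 CPM in females, with 1.23 ± 0.19 (SE, adjusted p = 7.38e-04). Fgfr2, the receptor that drives branching of the gland, was 44.9, 50.8 and 69.9 CPM in females and 19.4, 25.7 and 33.1 CPM in males, with -1.06 ± 0.15 (SE, adjusted p = 3.32e-04), and its ligand Fgf10 was 7.95, 11.1 and 15.1 CPM in females and 3.33, 6.11 and 11.05 CPM in males, with -0.89 ± 0.18 (SE, adjusted p = 0.00447). The first 4 of these separated the sexes, and Fgf10 overlapped.

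**Figure D3:**
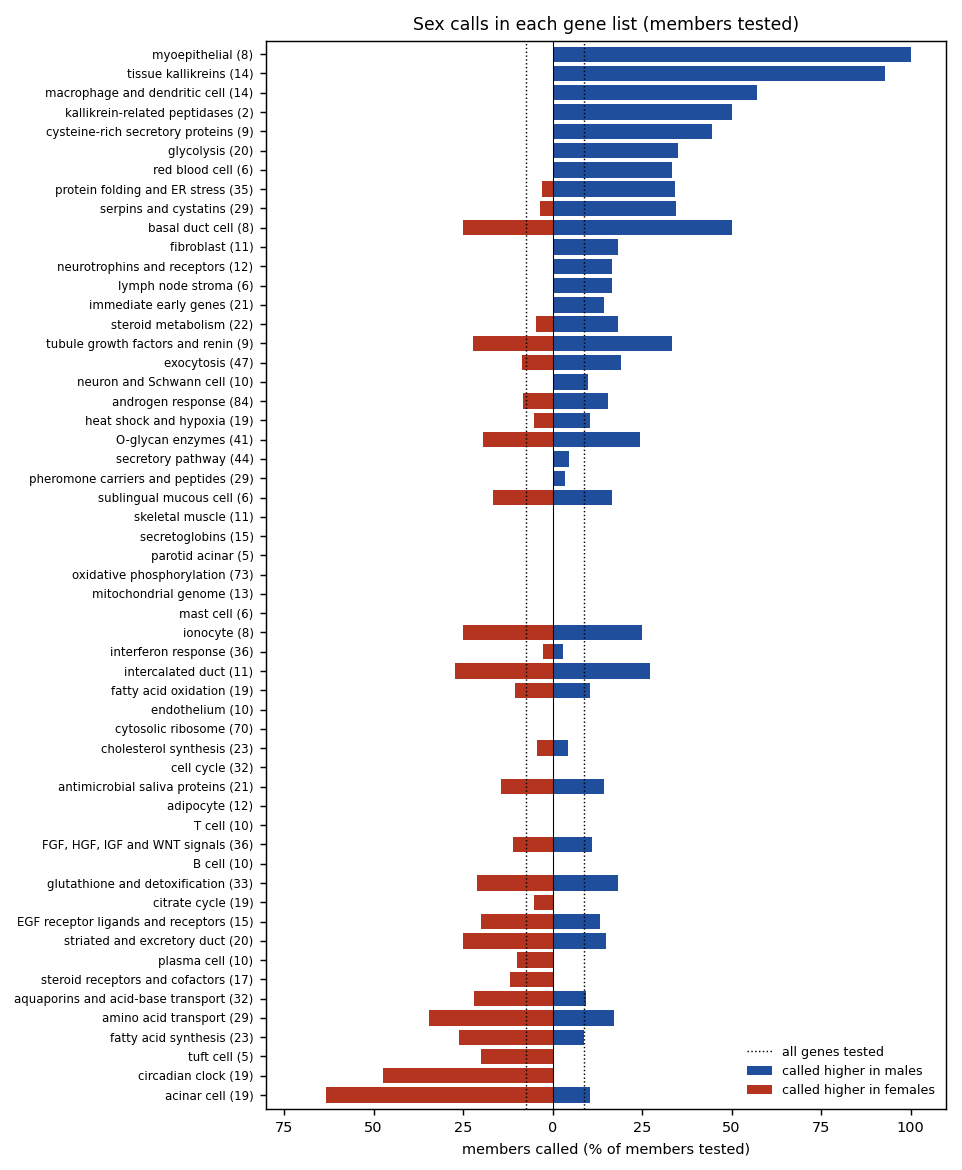
Share of the tested members of each gene list with a call toward males (right, blue) or females (left, red), in percent, with the number tested in brackets. Dotted lines mark the shares over all genes tested, 8.66% and 7.37%. The myoepithelial and kallikrein lists have the longest male bars, and the acinar and clock lists the longest female bars.

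The pattern was compared between the strains by fitting each alone, 3 males against 3 females, so that no library was shared. In CD1 877 of 15838 genes passed (5.54%), 581 higher in males (3.67%) and 296 in females (1.87%). The CD1 count was 454 without CD1 female 1, 491 without CD1 male 1, 353 without CD1 male 2 and 523 without CD1 male 3. In C57 1655 of 16372 were called (10.1%), 1041 higher in males (6.36%) and 614 in females (3.75%). The C57 count was 986 without C57 female 2, 596 without C57 male 1, 569 without C57 male 2 and 800 without C57 male 3. Of 15456 genes tested in both, 853 were called in CD1, and 829 of these (97.2%) had the same sign in C57. C57 also called 548 of the 853 (64.2%), and none was called there with the opposite sign. Of the 1611 called in C57, 1503 (93.3%) had the same sign in CD1. Over all 15456 genes 65.7% had the same sign, and across genes Pearson's r of the log2 fold changes was 0.624 and Spearman's rho 0.476. Genes are not independent, so no p is given. Genes called higher in males in CD1 had a median of 1.83 there and 1.43 in C57, and those called higher in females had -1.56 there and -0.78 in C57. Taken by their C57 call, male-higher genes had a median of 1.16 in C57 and 1.005 in CD1, and female-higher genes -0.77 in C57 and -0.87 in CD1. Each set was chosen by its value in one strain, and whether the sizes differ between strains was not tested.

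**Figure D4:**
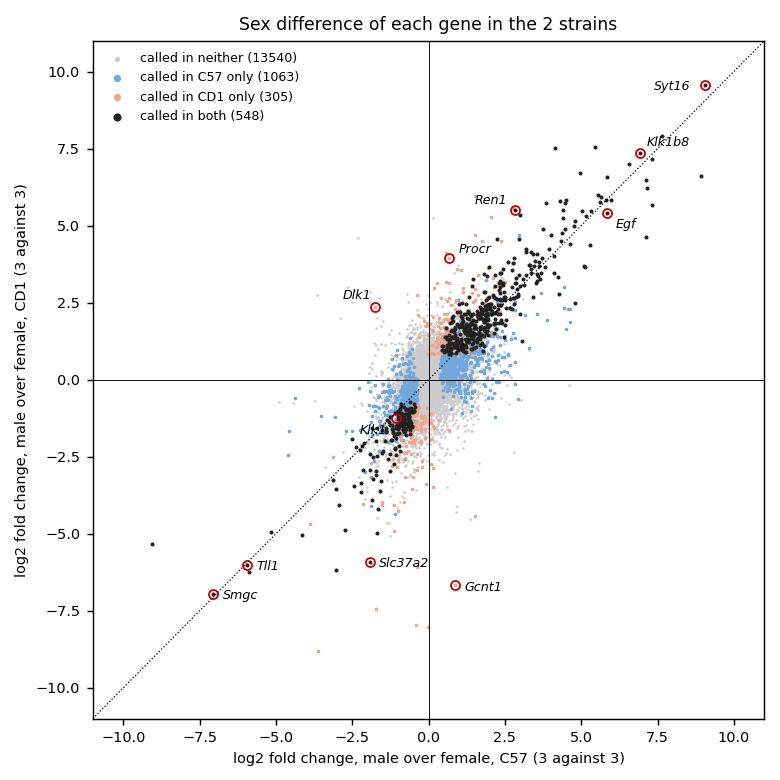
Log2 fold change of males over females in C57 (horizontal axis) and in CD1 (vertical axis), for 15456 genes tested in both strains, each fitted alone. Genes called in both strains lie at the lower left and upper right, and none is called in opposite directions.

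The gene groups held in both strains to different degrees. In CD1 and C57 alike 13 kallikreins were higher in males, with list medians of 5.74 and 5.44. Egf was 5.40 in CD1 and 5.84 in C57, as log2 fold changes. Smgc was -6.96 and -7.05. Of 8 myoepithelial markers, 6 were called higher in males in CD1 and 8 in C57. Acinar markers were called higher in females for 5 of 19 in CD1 and 7 in C57, and clock genes for 3 and 6 of 19. Of 11 fibroblast markers none was called in CD1, where the median was -0.31, and 5 were higher in males in C57, where it was 0.85. Whether these lists differ between strains was not tested.

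The test of the difference itself, the interaction of sex and strain, called 4 of 17150 genes (0.0233%). On simulated data this test recovered 5% of 2-fold and 49% of 4-fold interactions among 16828 genes. The low count therefore does not show that the strains agree. Gcnt1, the enzyme that branches core 1 glycans into core 2, averaged 330.0 ± 59.3 CPM in the CD1 females against 3.21 ± 0.0896 CPM in the CD1 males (SD, n = 3). The C57 females averaged 1.09 ± 0.2195 CPM and the C57 males 1.98 ± 0.903 CPM (SD, n = 3), so C57 lay near the CD1 male level in both sexes. Its interaction was -7.55 ± 0.44 (SE, adjusted p = 4.04e-06). In Slc37a2 the females were higher in both strains. The C57 males, at 33.8 ± 5.97 CPM, lay above the CD1 males, at 3.56 ± 0.512 CPM (SD, n = 3), and the interaction was -3.98 ± 0.30 (SE, adjusted p = 4.52e-05). Ccdc15 averaged 18.6 ± 7.795 CPM in the CD1 females, 2.61 ± 0.307 CPM in their males, and 5.71 ± 0.433 CPM and 4.84 ± 0.533 CPM in C57 (SD, n = 3). The next genes by interaction p, H2-Q4, Dlk1, Procr, Slc20a1 and St3gal1, did not pass. St3gal1, for one, was -4.88 in CD1 and -2.74 in C57 (interaction adjusted p = 0.0676).

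The sex difference of the submandibular gland was set against that of the other major salivary glands of the same animals. The contrast subtracts the mean sex difference in parotid and sublingual gland from that in the submandibular gland, in a fit of 36 libraries. It called 1037 of 20263 genes (5.12%), 633 more toward males in the submandibular gland (3.12%) and 404 more toward females (1.99%). Levels in this paragraph are scaled over all 60 libraries and differ slightly from those above. St3gal1 had the smallest p, at -3.74 ± 0.21 (SE, adjusted p = 1.11e-12). It was 628, 708 and 1013 CPM in submandibular females and 20.5, 58.7 and 119 CPM in submandibular males. In the sublingual gland it was 1118, 1455 and 1777 CPM in females and 883, 1434 and 1599 CPM in males, so the female submandibular level came closer to that of the sublingual gland. Tll1 was -6.55 ± 0.43 (SE, adjusted p = 3.80e-11), Smgc -6.81 ± 0.52 (SE, adjusted p = 1.32e-09) and Mob3b -2.72 ± 0.22 (SE, adjusted p = 2.00e-09). Smgc was also abundant in the sublingual gland of both sexes, at 615, 2116 and 4474 CPM in females and 451, 1547 and 3205 CPM in males. In the parotid it was 11.1, 25.9 and 38.5 CPM in females and 10.4, 21.97 and 60.5 CPM in males, the same range as in the submandibular gland of males.

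On the male side of that contrast, Prss23 was 3.10 ± 0.25 (SE, adjusted p = 3.91e-09) and Actg2 3.23 ± 0.30 (SE, adjusted p = 4.79e-08). Egf was 4.06 ± 0.75 (SE, adjusted p = 0.00118) and Vegfa 2.56 ± 0.32 (SE, adjusted p = 6.03e-06). Egf was 88.8, 219 and 284 CPM in parotid males and 52.3, 133 and 221 CPM in parotid females, and 183, 245 and 11161 CPM in sublingual males and 164, 192 and 216 CPM in sublingual females. The highest sublingual value is that of the library labelled sublingual C57 male 2, which also held 864 CPM of Klk1b27, and without it 1126 genes were called. The count also depended on single animals: it was 603 without C57 female 1, 592 without C57 male 1, 684 without C57 male 3 and 670 without CD1 male 2. Ren1 was 2.34 ± 1.16 (SE, adjusted p = 0.277) and did not pass.

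**Figure D5:**
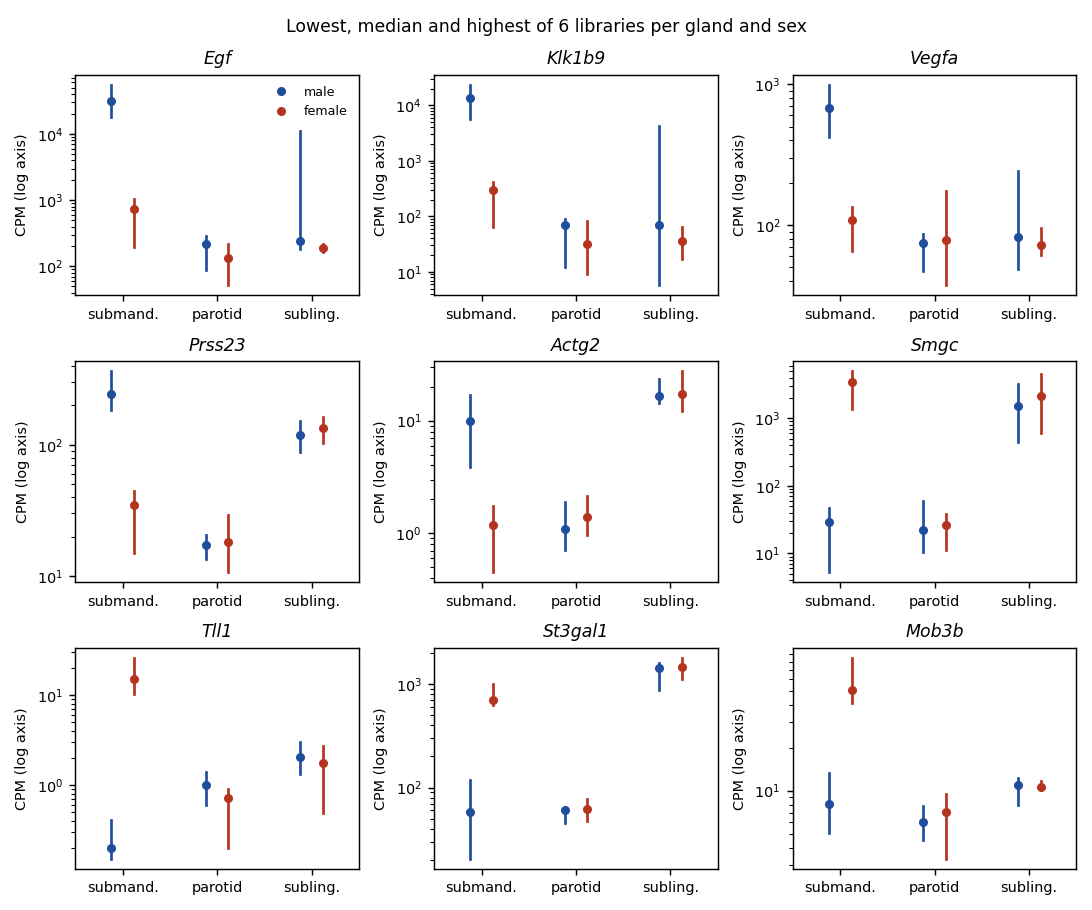
Levels of 9 genes in the males and females of the 3 salivary glands, in CPM on log axes, with points at the median and bars from the lowest to the highest of 6 libraries. Egf and Klk1b9 are high in submandibular males and reach high values in 1 sublingual male library, and Smgc and St3gal1 are low in submandibular males and high in sublingual libraries of both sexes.

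Calls were spread over the genome and over expression levels. On the autosomes 13.1% to 18.5% of tested genes were called, and of 16 tested mitochondrial genes 1 was (6.25%). In 4 equal groups of genes by mean expression, from low to high, the shares called were 8.14%, 16.2%, 18.2% and 21.5%, so weakly expressed genes had fewer calls.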

How the data were processed

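Whole submandibular glands of 12 mice gave poly(A)-selected RNA libraries, per the labels' protocols. Trim Galore, HISAT2 and featureCounts and the build GRCm39 are named in the submitters' processing notes, with no versions. The deposited table holds raw counts per gene from the authors, with no normalization. Values from 1 to 20 were even 54200 times and odd 32111 times, so reads of a pair appear to have been counted separately, and counts are not independent molecules. The start and end listed for a gene bound 1 exon.

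Libraries were grouped by label and tested with edgeR 4.0.16 in R 4.3.3: TMM scaling, filterByExpr and the quasi-likelihood test, with Benjamini-Hochberg adjustment over all genes tested and calls at an adjusted p under 0.05. Of 41079 genes, 1895 on X and Y were left out after library sizes were taken. The sex difference had strain as a covariate, the strains were also fitted apart, and the interaction and the gland contrast used group means. The fit was tested on simulated data for the sex difference, where it recovered 52% of 2-fold and 83% of 4-fold changes among 16907 genes.

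Genes were named by rule: the 12 largest differences in each direction without overlap and with at least 10 CPM, up to 3 called members of each list in each direction by smallest p with at least 1 CPM, fixed genes of the gland (among them Egf, Ren1, the kallikreins, Smgc, Dcpp1 to Dcpp3, Esr1, Aqp5 and Bhlha15), the 8 smallest interaction p with at least 5 CPM, the 5 largest differences in mean level each way, and the 6 smallest p of the gland contrast. Other called members of a list are named too. Some genes that the rule names are not reported here. The libraries, the 55 gene lists and the rule were chosen with earlier results of these data known, and the lists carry no test of their own. Replicate numbers did not pair the samples. Alternatives were another scaling, other filters, DESeq2 1.42.0, limma-voom (limma 3.58.1), other designs and leaving out libraries.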

Additional observations from a re-analysis of the deposited data

Results flagged for a closer look

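In 9 cases, each a set of cell type markers in 1 sex, 1 library stood far from the other 5 of that sex by Dixon's ratio. This ratio flags about 1 group in 20 by chance, and all 21 cell type lists were examined in each sex. Values are summed CPM. C57 male 3 had 41.61 of tuft cell markers against 12.71 to 16.31 in the other males. CD1 male 2 had 503.7 of fibroblast markers against 834.8 to 991.7. C57 female 1 had 41.25 of B cell markers against 1.237 to 11.76 in the other females. For adipocyte markers, CD1 male 3 had 78.55 against 32.06 to 44.2, and CD1 female 3 had 259.5 against 34.77 to 69.52. For skeletal muscle markers, CD1 male 3 had 146.4 against 5.179 to 29.34, and C57 female 2 had 70.7 against 6.826 to 15.44. CD1 female 1 had 6665 of parotid acinar markers against 1863 to 3478, and CD1 female 3 had 154 of red blood cell markers against 22.27 to 49.74.

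The sex difference depended on strain by the interaction test, on the log2 scale with edgeR's adjusted p, in 4 genes. The values were -7.548 for Gcnt1 (adjusted p = 4.04e-06), -3.982 for Slc37a2 (4.52e-05), -2.583 for Ccdc15 (0.0346) and -3.63 for Trim5 (0.0346), where negative means a stronger shift toward females in CD1. Trim5 lies below the level set for naming.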

How the results depend on the processing

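The sex difference of 2749 genes lay between 2154 and 2951 without 1 library and between 2394 and 3561 under the alternatives of scaling, filter, test and design, and it was 1254 with a 2-fold minimum. It was 2632 without CD1 female 2 and C57 female 1, and 1937 without the 3 libraries with intestinal transcripts, all chosen after seeing the data. The CD1 count of 877 became 1571 with no filter on low counts, 1746 with DESeq2 and 1980 as a contrast within 12 libraries, and 353 to 806 without 1 library. The C57 count of 1655 became 2649 with DESeq2, 885 with the replicate block and 799 within 12 libraries, and 569 to 1830 without 1 library. The interaction count of 4 became 105 with no filter, 119 with DESeq2, 2 with the replicate block and 2 to 6 without 1 library. The gland contrast of 1037 lay between 592 and 1137 without 1 animal. The share of CD1 calls with the same sign in C57, 97.2%, was 92.5% with no filter, 93.5% with DESeq2, 93.6% within 12 libraries and 95.8% to 97.9% without 1 library. The replicate block gave 2394 genes for the sex difference, 993 in CD1 and 953 for the gland contrast, but same-numbered samples did not deviate together, so the numbers are no more than names. The causes were not tested.

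Of the 173 named genes none changed direction. The sex call changed sides of the threshold for 4 of them with the 20 most abundant genes left out of the scaling, 15 with no strain term, 9 with the replicate block and 39 without the 3 libraries with intestinal transcripts. Calls were fewest among the least expressed genes, and the part of depth in that was not tested. With 3 libraries a group, the strain fits recovered 9% (CD1) and 18% (C57) of simulated 2-fold changes, among 16033 and 16360 genes.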

Other observations

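Some gene groups with many members showed no sex call over the 12 submandibular libraries. By edgeR none of 73 oxidative phosphorylation genes, 70 cytosolic ribosome genes, 32 cell cycle genes or 13 tested mitochondrial genome genes was called, and each list held 1 gene with an unadjusted p under 0.05. DESeq2 called 1 oxidative phosphorylation gene higher in males and none in the other 3 lists, and limma-voom called none in any of the 4. Without the 3 libraries with intestinal transcripts edgeR called 5 ribosomal genes higher in females, and without CD1 female 2 and C57 female 1 it called 1 ribosomal and 1 mitochondrial genome gene higher in females. In 3 of the 4 lists the medians had opposite signs in the strains fitted alone, and the mitochondrial genome genes were -0.14 in CD1 and -0.20 in C57. Oxidative phosphorylation was 0.69 in CD1 and -0.08 in C57 on the log2 scale, and the ribosomal genes were 0.54 and -0.54. Cell cycle genes were -0.39 and 0.80. These differences between strains were not tested. In CD1 single libraries stood apart. The ribosomal sum was 28722 CPM in CD1 male 1 and 5782 CPM in CD1 female 2. CD1 males 2 and 3 (13568 and 12561 CPM) lay below CD1 females 1 and 3 (15765 and 17759 CPM). The oxidative phosphorylation sum was 13734 CPM in CD1 male 1 and 3972 CPM in CD1 female 2. It was 7902 and 8664 CPM in CD1 males 2 and 3, and 7960 and 9298 CPM in CD1 females 1 and 3. In C57 alone 10 ribosomal genes were called higher in females and 4 cell cycle genes higher in males, and in CD1 none of either list was called. The summed ribosomal level was 12561 to 28722 CPM in males against 5782 to 26737 CPM in females, so the sexes overlapped widely.

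Pabpc1, the poly(A)-binding protein, was among the 5 largest differences in mean level toward females. It was 1512, 2319.8 and 2757 CPM in females and 499, 1282 and 1378 CPM in males, with -0.91 ± 0.25 (SE, adjusted p = 0.0255) by edgeR, and its call was lost in 2 of 12 leave-one-out fits (adjusted p up to 0.0537, without CD1 male 3). Of the genes next in line by interaction p, Procr, the receptor of protein C, was 1.08, 6.91 and 21.1 CPM in males and 0.629, 1.06 and 1.45 CPM in females, with 2.32 ± 0.56 (SE, adjusted p = 0.0123). H2-Q4, a class I histocompatibility gene with near-identical relatives, was 27.2, 50.2 and 89.2 CPM in males and 23.6, 27.3 and 29.3 CPM in females, with 0.85 ± 0.23 (SE, adjusted p = 0.0216), and its call was lost in 2 of 12 leave-one-out fits (adjusted p up to 0.0599, without CD1 female 1). Dlk1 was 0.184, 16.9 and 51.95 CPM in males and 0.9899, 3.58 and 11.9 CPM in females and Slc20a1 was 10.5, 17.99 and 39.3 CPM in males and 10.7, 11.2 and 13.3 CPM in females, and neither passed. Tff2, a trefoil peptide, was 3.0004, 9.01 and 12.6 CPM in males and 1.93, 3.79 and 5.22 CPM in females and lost its call in 8 of 12 leave-one-out fits (adjusted p up to 0.118, without C57 male 2).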
